A study of Mus musculus with 3 samples.

Results

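The genes of prostaglandin synthesis, inactivation and response were described across 3 mouse kidneys. The set holds 9 genes: the cyclooxygenases Ptgs1 and Ptgs2, the synthases Ptges, Ptgds and Ptgis, the dehydrogenase Hpgd, and the prostaglandin E2 receptors Ptger1, Ptger3 and Ptger4. Its members were all probe sets whose only platform gene symbol is one of these names, which gave 16 probe sets of 8 genes, of 18193 genes named in the same way on the array. No probe set was assigned to Ptgs1 by this rule, and Ptgs1 is not analysed here. The samples were total kidney RNA from C57BL/6 mice under conventional housing, on 1 single-colour Affymetrix array per mouse. The acetate group is 2 mice that drank water with 200 mM acetate, a short-chain fatty acid, for 6 weeks from 3 weeks of age. The control group is 1 mouse labelled control, listed with the same 6 weeks and starting age of 3 weeks. The contrast addresses gene expression in kidney after weeks of acetate intake. Values are the deposited log2 expression values, on which a difference of 1 is a 2-fold change, and each difference is acetate minus control, so that it carries whatever was particular to the 1 control kidney.

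Prostaglandins are local lipid signals. Phospholipases A2 free arachidonic acid from membranes, and the cyclooxygenases convert it to prostaglandin H2. Terminal synthases shape that into prostaglandin E2, D2, F2 alpha, prostacyclin or thromboxane, and each product acts on its own G protein-coupled receptors. Some products, such as prostaglandin E2, are then taken up and oxidised. In the kidney prostaglandin E2 is known for adjusting blood flow, renin release, and salt and water reabsorption in the thick ascending limb and collecting duct.

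No member was 2-fold from the control in either acetate-fed kidney. Across the 16 probe sets the differences ran from -0.41 to 0.62 in acetate-fed mouse 1 and from -0.27 to 0.48 in acetate-fed mouse 2, inside the range that held the middle 95% of all 27022 tested probe sets (-0.53 to 0.75 in mouse 1 and -0.52 to 0.58 in mouse 2). Ptgds, Ptger3 and Ptger4 had every probe set above the control in both acetate-fed kidneys, by at most 1.54-fold, though the lower Ptger4 probe set was too low to be tested. Ptgis on its single probe set and Ptger1 on both of its probe sets lay below the control in both, by at most 1.2-fold. The lower Ptger1 probe set was too low to be tested. The share of all genes with every probe set on the same side was not counted. Ptges and Hpgd had no common direction, and Ptgs2 lay near the bottom of the scale on all 3 arrays.

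**Figure D1:**
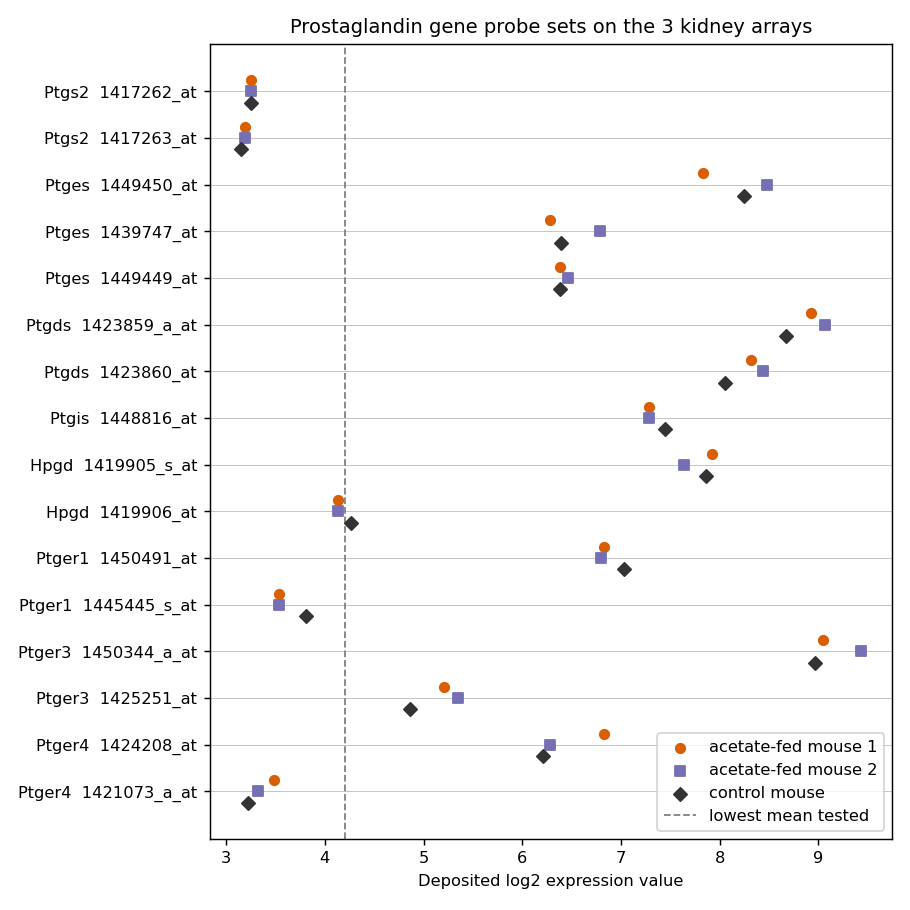
Deposited log2 value (horizontal axis) of each of the 16 probe sets of the prostaglandin genes, with 1 point for each mouse (circle, acetate-fed mouse 1; square, acetate-fed mouse 2; diamond, control mouse) and no error bars, since each point is 1 array. The dashed line marks 4.21, the lowest mean over the 3 arrays that was tested, and 5 probe sets fall below it.

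The arrays had nearly equal medians, 4.94 and 4.93 on the acetate-fed arrays and 4.91 on the control array, and markers of kidney epithelium were high on all 3: the Umod probe set with the highest mean, for uromodulin, stood at 13.67 and 13.64 in the acetate-fed kidneys and 13.53 in the control. The arrays differed in markers of other cell types, and the part of this in the comparisons below was not tested. All 5 tested adipocyte markers of 8 listed were lower in both acetate-fed kidneys, and Adipoq, the gene of the fat hormone adiponectin, was 4.38 and 3.87 in the acetate-fed kidneys against 9.98 in the control. Testing required a mean of 4.21 over the 3 arrays, which a marker can reach through the group where it is high. Marker counts here and below can therefore be set in part by that filter, and Adipoq itself was below 4.21 in mouse 2. The summed linear signal of those 5 genes was 1027 and 1121 in the acetate-fed kidneys, against 4072 in the control. All 11 tested macrophage markers of 12 listed were higher in both acetate-fed kidneys, with a summed signal of 8791 and 4758, against 2401 in the control. In whole kidney, fewer cells of a type and less RNA per cell cannot be told apart.

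**Figure D2:**
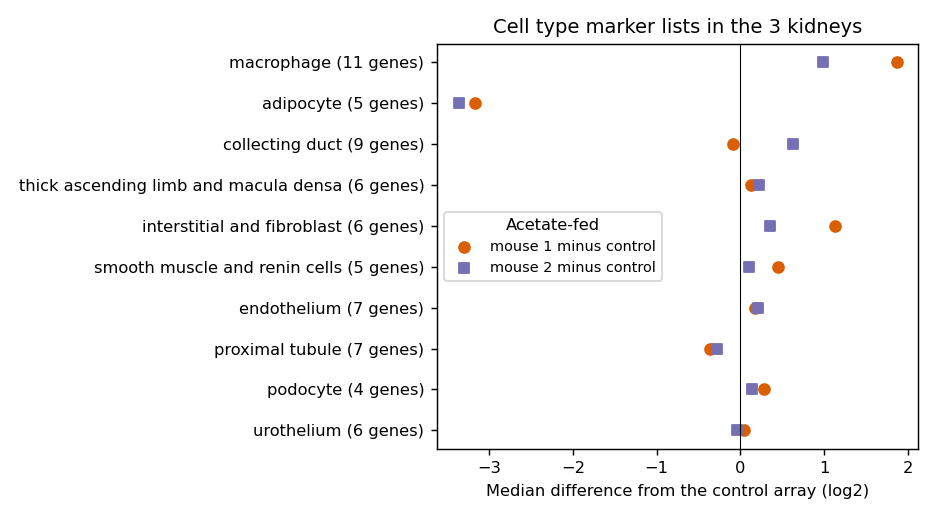
Median log2 difference from the control array over the tested genes of each cell type marker list (circles, acetate-fed mouse 1; squares, acetate-fed mouse 2); the number of genes in each median stands beside the list name. The adipocyte markers lie at -3.17 and -3.36, while the macrophage markers lie at 1.86 and 0.99.

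A probe set counted as separated when the control lay outside the acetate-fed pair. Of the 11 member probe sets that reached a mean of 4.21, which cover 7 genes, the control lay below both acetate-fed values at 5, against a background of 26.9% of all tested probe sets, and above both at 2, against 27.5%. With the 5 low probe sets included, the control lay below both at 7 of 16 (background 22.0%) and above both at 4 of 16 (background 23.0%). Past 2-fold in a single mouse there were 0 members, where 1.42% of tested probe sets lay higher and 0.459% lower in mouse 1, and 0.551% higher and 0.581% lower in mouse 2. Past 1.5-fold there was 1 member higher (background 3.85%) and 0 lower (1.96%) in mouse 1, and 0 higher (2.46%) and 0 lower (2.02%) in mouse 2. At 2-fold in both mice there were 0 members in either direction, where the background was 0.344% higher and 0.359% lower. At 1.5-fold in both mice there were also 0, against a background of 1.67% higher and 1.23% lower. At 1.2-fold in both, a fold set after the values were seen, 2 of the 11 were higher, 1 of Ptger3 and 1 of Ptgds (background 6.97%), and 0 lower (background 5.86%). Median differences over the 11 tested member probe sets were 0.07 in mouse 1 and 0.23 in mouse 2, beside 0 in each mouse over all tested probe sets.

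By limma with Benjamini-Hochberg adjustment over all tested probe sets, 1 of the 11 passed, as lower, and 0 as higher, where the background of calls was 5.35% lower and 5.18% higher. At an unadjusted p under 0.05 there were 2, in Ptgis and Ptger1, where 20.0% of all tested probe sets lay. The fit has 1 residual degree of freedom, and 92.3% of its calls over the whole array are probe sets whose acetate-fed values are exactly tied. With tied pairs left out of the fit, 0 of the 10 remaining member probe sets passed limma's test (3 at an unadjusted p under 0.05, with a background of 21.3%, lowest adjusted p 0.115), against a background of 6.55% higher and 4.97% lower. With no filter on low values limma passed 4 of the 16, 1 of Ptgs2 as higher (background 6.97%) and 1 each of Ptgis, Hpgd and Ptger1 as lower (background 7.51%). All 4 have exactly tied acetate-fed values.

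**Figure D3:**
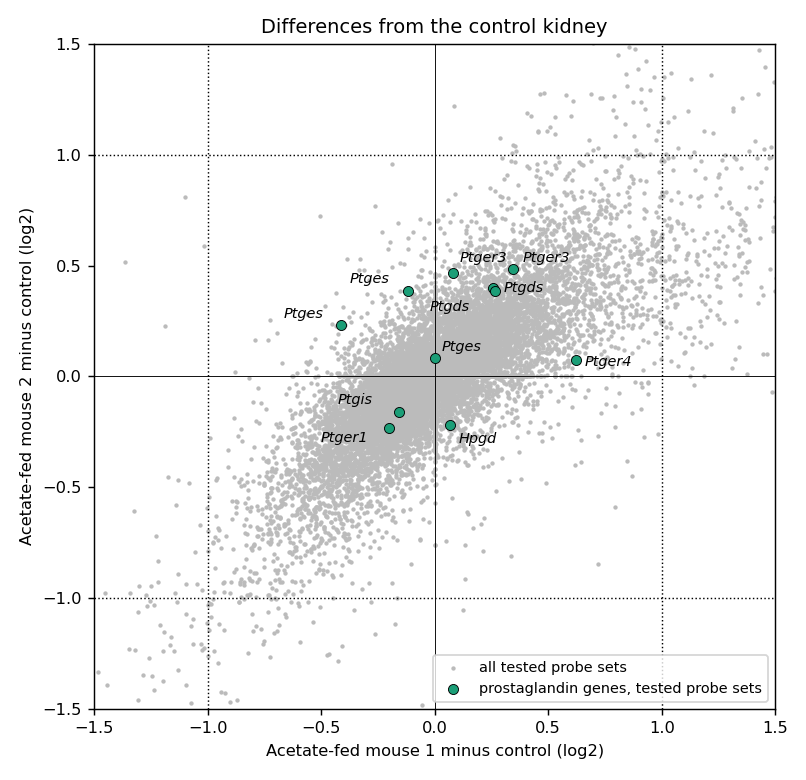
Log2 difference from the control in acetate-fed mouse 1 (horizontal axis) and acetate-fed mouse 2 (vertical axis) for all 27022 tested probe sets (grey) and the 11 tested probe sets of the prostaglandin genes (green, with gene names). Dotted lines mark a 2-fold difference, 228 grey points beyond the axis limits are not drawn, both axes share the control array, and the green points all lie inside the dotted lines.

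The cyclooxygenase Ptgs2, the inducible enzyme that commits arachidonic acid to the prostaglandins, is known in kidney from the macula densa, thick ascending limb and medullary interstitium. Its probe set 1417262_at stood at 3.26 on each of the 3 arrays. The other, 1417263_at, stood at 3.19 on both acetate-fed arrays and 3.15 on the control array. Neither reached the mean needed for testing, and 30.0% of the probe sets on the array were identical across the 3 arrays. The table carries no detection calls, and a low value does not show that the transcript was absent.

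Ptges encodes the inducible microsomal prostaglandin E synthase. Its probe set with the highest mean, 1449450_at, had 7.84 and 8.48 in the acetate-fed kidneys against 8.25 in the control. Probe set 1439747_at had 6.28 and 6.78, against 6.40 in the control. The third, 1449449_at, had 6.38 and 6.46, against 6.38 in the control. On 1449450_at and 1439747_at acetate-fed mouse 1 lay below the control and acetate-fed mouse 2 above it, and on 1449449_at mouse 1 equalled the control, so the groups did not separate on any Ptges probe set. The mean differences were -0.09, 0.13 and 0.04, with standard errors of 0.48, 0.38 and 0.06, and none passed limma's test (adjusted p = 1, 1 and 0.871).

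Ptgds encodes lipocalin-type prostaglandin D synthase, which makes prostaglandin D2 and is also secreted as a carrier of small lipophilic molecules. Its probe set 1423859_a_at had 8.93 and 9.07 in the acetate-fed kidneys against 8.67 in the control. Probe set 1423860_at had 8.32 and 8.44 in the acetate-fed kidneys against 8.06 in the control. Both probe sets placed both acetate-fed mice above the control, and their mean differences were 0.327 ± 0.106 and 0.325 ± 0.0908 (SE, 2 acetate-fed mice and 1 control). The folds over the control were 1.19 in mouse 1 and 1.32 in mouse 2 for the first probe set, and 1.2 and 1.31 for the second. Neither passed limma's test (adjusted p = 0.474 and 0.426, and 0.123 and 0.143 without tied pairs). The gap between the acetate-fed mice was 0.14 and 0.12, smaller than the gap to the control. The 4 tested podocyte markers of 6 listed were also higher in both acetate-fed kidneys, at a median of 0.28 (mouse 1) and 0.14 (mouse 2). That median was larger in mouse 1, whereas Ptgds was higher in mouse 2. All 11 tested macrophage and all 6 interstitial and fibroblast markers were higher in both too. So were 6 of 7 endothelial and 5 of 6 thick ascending limb and macula densa markers. All 5 tested adipocyte and 6 of 7 proximal tubule markers were lower in both. The part of these cell types in the Ptgds value was not tested.

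Ptgis, prostacyclin synthase, makes the vasodilator prostacyclin and is known from endothelium and smooth muscle. Its single probe set, 1448816_at, stood at 7.29 on both acetate-fed arrays and 7.45 on the control array. It was the 1 member that passed limma's test, as lower by 1.12-fold, with a difference of -0.16 and an adjusted p of 0.0201. The acetate-fed values are exactly tied, and the call was lost after quantile normalization (adjusted p = 0.290), median centring (adjusted p = 0.270) and when only the upper 40% were tested (adjusted p = 0.0610). Of the 7 endothelial markers, 6 were higher in both acetate-fed kidneys and 0 lower, with medians of 0.17 and 0.21. Of the 5 tested smooth muscle and renin cell markers, 3 were higher in both and 0 lower, with medians of 0.45 and 0.10. All 5 tested adipocyte markers (medians -3.17 and -3.36) and 6 of 7 proximal tubule markers were lower in both. The part of these cell types in the Ptgis value was not tested.

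Hpgd encodes the dehydrogenase that oxidises and so inactivates prostaglandins. Its probe set 1419905_s_at had 7.92 and 7.64 in the acetate-fed kidneys against 7.86 in the control, with mouse 1 above and mouse 2 below the control. Its difference of -0.08 ± 0.21 (SE) did not pass limma's test (adjusted p = 1). The second probe set, 1419906_at, was too low to be tested, at 4.13 on both acetate-fed arrays and 4.27 on the control array.

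The measured E-type receptors differ in their signalling. Ptger1 couples to calcium, Ptger3 mainly lowers cyclic AMP and is known for opposing vasopressin in the collecting duct, and Ptger4 raises cyclic AMP. Ptger1 had 6.83 and 6.80 in the acetate-fed kidneys against 7.03 in the control on probe set 1450491_at. On 1445445_s_at, below the testing limit, it had 3.54 on both acetate-fed arrays and 3.81 on the control array. Both probe sets had the acetate-fed pair below the control, by 1.15-fold and 1.17-fold for the tested one, which did not pass limma's test (difference -0.22 ± 0.02 SE, unadjusted p = 0.0309, adjusted p = 0.182). That standard error rests on acetate-fed values that lay 0.03 apart, with no spread from the single control. It was 0.15 in the fit without tied pairs, in which the probe set did not pass either. With a pseudocount of 64 on the linear scale the difference was -0.14.

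Ptger3 had 9.05 and 9.44 in the acetate-fed kidneys against 8.97 in the control on probe set 1450344_a_at. On probe set 1425251_at it had 5.21 and 5.35, against 4.86 in the control. The groups did not overlap on either, and mouse 2 was the higher of the acetate-fed pair on both. In mouse 1 the folds over the control were 1.06 and 1.27, so the 2 probe sets differ in size there, while in mouse 2 they were 1.38 and 1.40. Neither passed limma's test (differences 0.27 ± 0.29 and 0.41 ± 0.10 SE, adjusted p = 0.871 and 0.386), and with a pseudocount of 64 the differences were 0.25 and 0.14. The tested collecting duct markers, 9 of 9 listed, had a median of -0.08 (mouse 1) and 0.63 (mouse 2), with 4 higher and 1 lower in both. Aqp2, the vasopressin-regulated water channel, had 11.93 and 12.55 in the acetate-fed kidneys against 11.43 in the control, likewise highest in mouse 2. Of 6 thick ascending limb and macula densa markers, 5 were higher in both mice and 1 lower (medians 0.13 and 0.23). The part of these tubule segments in the Ptger3 values was not tested.

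Ptger4 had 6.83 and 6.28 in the acetate-fed kidneys against 6.21 in the control on probe set 1424208_at. It was 1.54-fold higher in mouse 1, the 1 member probe set past 1.5-fold in that mouse, and 1.05-fold higher in mouse 2. On 1421073_a_at, below the testing limit, it had 3.49 and 3.32 in the acetate-fed kidneys against 3.22 in the control. Both probe sets had mouse 1 highest and the control lowest, but the gap between the acetate-fed mice exceeded the gap between mouse 2 and the control, and the difference of 0.35 ± 0.41 (SE), or 0.20 with a pseudocount of 64, did not pass limma's test (adjusted p = 0.871). Macrophages are among the cells known to carry Ptger4. The macrophage markers had the same order, with mouse 1 above mouse 2 in their summed signal and the control lowest. So did the 6 interstitial and fibroblast markers (6322 and 2955 in the acetate-fed kidneys, against 2271 in the control) and the 5 tested smooth muscle and renin cell markers (3821 and 2030, against 1838 in the control). The part of these cell types in the Ptger4 value was not tested.

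The promoters of Ptgds, Ptger3 and Ptger4 are shown because these are the genes whose every probe set lay above the control in both acetate-fed kidneys. Each is the 300 bases from 250 before to 50 after the annotated start, from RefSeq on GRCm38.p6, printed 5′ to 3′ on the gene's strand, and 7 of the 9 genes of the set had such an entry. Capitals mark matches, on either strand, to the AP-1 element TGANTCA, the GC box GGGCGG, the CCAAT box CCAAT and the TATA box TATAAA. Ptgds lies on the minus strand at chr2:25469700-25469999, Ptger3 on the plus strand at chr3:157566626-157566925, and Ptger4 on the minus strand at chr15:5244138-5244437.
Ptgds: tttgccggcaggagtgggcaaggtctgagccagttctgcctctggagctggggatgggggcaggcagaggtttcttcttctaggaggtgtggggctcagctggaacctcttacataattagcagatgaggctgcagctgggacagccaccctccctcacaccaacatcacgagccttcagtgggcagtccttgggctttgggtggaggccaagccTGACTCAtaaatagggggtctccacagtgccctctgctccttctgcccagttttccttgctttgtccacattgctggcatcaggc
Ptger3: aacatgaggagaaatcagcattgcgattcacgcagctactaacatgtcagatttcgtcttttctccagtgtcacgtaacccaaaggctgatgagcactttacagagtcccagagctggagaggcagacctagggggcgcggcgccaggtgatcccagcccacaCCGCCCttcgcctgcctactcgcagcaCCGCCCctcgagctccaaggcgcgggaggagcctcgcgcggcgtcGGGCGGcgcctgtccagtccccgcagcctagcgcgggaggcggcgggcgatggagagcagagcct
Ptger4: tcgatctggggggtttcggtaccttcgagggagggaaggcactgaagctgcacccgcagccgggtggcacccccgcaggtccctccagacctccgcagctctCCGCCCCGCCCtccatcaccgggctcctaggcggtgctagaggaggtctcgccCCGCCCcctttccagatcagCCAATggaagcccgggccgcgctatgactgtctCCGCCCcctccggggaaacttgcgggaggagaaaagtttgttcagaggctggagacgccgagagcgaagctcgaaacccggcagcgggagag

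The 3 windows had no element in common. Ptgds held 1 TGANTCA match, beginning 35 bases before the start, and 7.81% of all 32851 promoter windows of this length held at least 1. Ptger3 held 3 GGGCGG matches and Ptger4 held 4, of which a pair share 1 base, and 35.7% of all windows held at least 1. Of the members not shown, Ptges held 2 GGGCGG matches, Ptgs2 and Hpgd 1 each, and Ptgs1 0. Ptger4 also held 1 CCAAT match, as 37.4% of windows did. None of the 3 windows shown held TATAAA, which 13.6% of all windows did, that of Hpgd among them. A match describes letters in the window and is not a measured binding site.

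The members were set beside the rest of the eicosanoid pathway, a list of 51 genes that includes them. Of these, 47 had a probe set and 41 were tested, each by its probe set with the highest mean. The control lay below both acetate-fed kidneys at 8 of the 41 (19.5%), against 26.0% of all genes tested, and above both at 17 (41.5%), against 30.9%. At 1.5-fold in both mice 1 gene was higher (background 1.75%) and 1 lower (background 1.60%). By limma 2 genes passed as higher, Hpgds and Alox5 (background 3.97% of all genes tested), and 2 as lower, Ptgis and Pla2g10 (background 4.92%). The acetate-fed values of those 4 are exactly tied, and Alox5 and Pla2g10 are named after their values were seen. Proximal tubule markers also leaned lower, at 6 of 7 in both acetate-fed kidneys and 0 higher, with medians of -0.36 and -0.28, and their part in the pathway's counts was not tested.

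**Figure D4:**
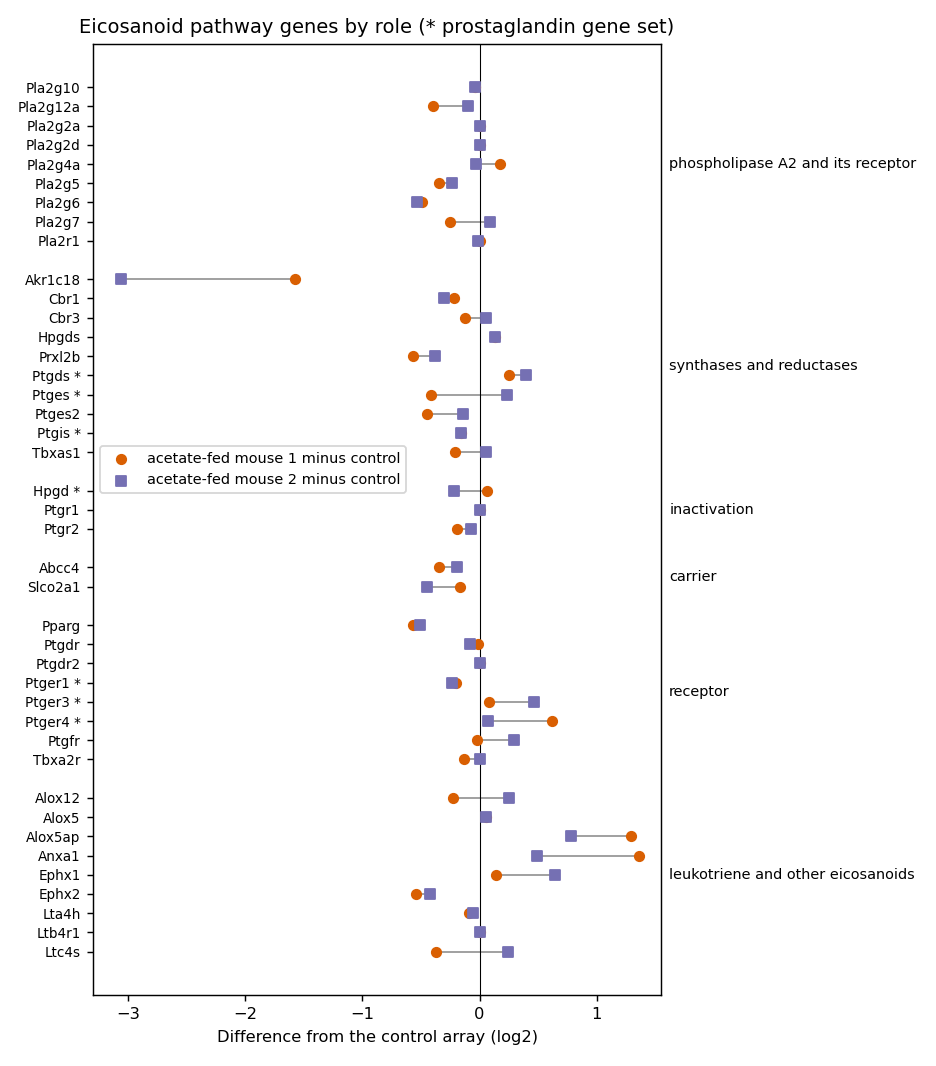
Log2 difference from the control array for the 41 tested eicosanoid pathway genes, each by its probe set with the highest mean, grouped by role (circles, acetate-fed mouse 1; squares, acetate-fed mouse 2; asterisks mark the prostaglandin gene set). Akr1c18 lies far to the left at -1.58 and -3.06, and Alox5ap to the right at 1.29 and 0.78.

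At the head of the pathway, 0 of 9 tested genes of the phospholipases A2 and their receptor were higher in both acetate-fed kidneys. Lower in both were 4, and the shares of all genes tested were 26.0% higher and 30.9% lower. Pla2g10 is among these 4 by a difference of -0.04 on tied acetate-fed values. Pla2g6, a calcium-independent phospholipase named after its values were seen, is 1 of those 4 by its probe set with the highest mean, at 6.89 and 6.84 in the acetate-fed kidneys against 7.38 in the control. A second tested probe set of Pla2g6, 1431277_at, went the other way, at 6.79 and 6.70 in the acetate-fed kidneys against 6.25 in the control. Pla2g4a, the cytosolic phospholipase that supplies most arachidonic acid for prostaglandins, had 6.51 and 6.31 in the acetate-fed kidneys against 6.34 in the control, on either side of it. Among 10 tested synthases and reductases 2 were higher in both (background 26.0% of all genes tested) and 5 lower (background 30.9%). Ptges2, a second prostaglandin E synthase, had 8.70 and 9.01 in the acetate-fed kidneys against 9.15 in the control (adjusted p = 0.800 by limma). Hpgds, the haematopoietic prostaglandin D synthase, was 4.55 on both acetate-fed arrays and 4.42 on the control array, and rose 1.09-fold by limma (adjusted p = 0.00906) on that tie. Tbxas1, thromboxane synthase, had 7.77 and 8.03 in the acetate-fed kidneys against 7.98 in the control, with the groups overlapping.

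Akr1c18, an aldo-keto reductase that acts on progesterone and can form prostaglandin F2 alpha, differed most within the pathway. It had 10.31 and 8.82 in the acetate-fed kidneys against 11.89 in the control, 2.99-fold lower in mouse 1 and 8.35-fold lower in mouse 2. Both acetate-fed values lay below the control, but they also lay 1.48 apart. It did not pass limma's test, with a standard error of 1.10, and passed it with tied pairs left out, with a standard error of 0.273. That smaller error borrows its spread from other probe sets, with 26.5 prior degrees of freedom beside 1 residual. The single control adds no spread to either fit.

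Both tested carriers were lower in both acetate-fed kidneys, as were 30.9% of all genes tested. Slco2a1, the transporter that takes prostaglandins up for oxidation, was lower in both on all 4 of its tested probe sets, and the one with the highest mean had 8.31 and 8.04 in the acetate-fed kidneys against 8.48 in the control (adjusted p = 0.745 by limma). Another of the 4, with the acetate-fed values tied at 4.24 against 4.46 in the control, passed limma's test (adjusted p = 0.00906). Abcc4, which exports prostaglandins, had 8.82 and 8.98 in the acetate-fed kidneys against 9.17 in the control (adjusted p = 0.575 by limma).

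The other prostanoid receptors showed small or no differences. Ptger2, which like Ptger4 raises cyclic AMP, was at 2.73 on all 3 arrays, below the testing limit, as was Ptgir, the prostacyclin receptor, at 3.78 and 3.64 in the acetate-fed kidneys against 3.78 in the control. Ptgfr, the prostaglandin F2 alpha receptor, had 7.49 and 7.80 in the acetate-fed kidneys against 7.51 in the control on its probe set with the highest mean. Its probe set 1420349_at was lower in both, at 7.30 and 7.51 in the acetate-fed kidneys against 7.63 in the control. Tbxa2r, the thromboxane receptor, had 7.21 and 7.34 in the acetate-fed kidneys against 7.34 in the control. None of their tested probe sets passed limma's test.

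On the leukotriene side, Alox5ap, the 5-lipoxygenase activating protein of myeloid cells, was the pathway gene at least 1.5-fold higher in both mice. It had 7.70 and 7.19 in the acetate-fed kidneys against 6.41 in the control, 2.45-fold and 1.72-fold higher, and did not pass limma's test (adjusted p = 0.515). With tied pairs left out, limma passed 2 of 32 tested pathway genes as higher, Alox5ap and Anxa1 (background 6.60% of genes in that fit), and 5 as lower, Akr1c18, Pla2g6, Prxl2b, Pparg and Ephx2 (background 6.12%). The probe set 1431277_at of Pla2g6 passed the same fit as higher (adjusted p = 0.0303 by limma), against the gene's own call. Anxa1 and the last 4 are named after their values were seen. None of those 7 is a member of the prostaglandin set. Macrophage markers were higher, and adipocyte and most proximal tubule markers lower, in both acetate-fed kidneys, as given above, and their part in these differences was not tested.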

How the data were processed

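Values came from 1 table of log2 expression values, deposited by the authors, with 45101 probe sets and 3 arrays. The submitters' processing notes name MAS5. The summary behind the log2 values, any filter and the software version are not stated in the sources used here. No scanner file was used, so the origin of the exactly tied values was not traced. Precision is limited by the number of arrays. Nothing in the labels says more of how the mice were sampled than 1 array per mouse. Groups came from the labelled agent.

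Gene names came from the platform annotation, checked by Entrez identifier. Of 45037 that are no Affymetrix controls, 34945 had 1 symbol, 932 several and 9160 none listed. The upper 60% by mean over the 3 arrays (27022 probe sets, mean at least 4.21) were tested with limma 3.58.1 (R 4.3.3, lmFit and eBayes with an intensity trend), with the adjusted p threshold at 0.05. The spread of the acetate-fed pair stands for that of the single control. All member probe sets were named. Other pathway genes were named by role or at 1.5-fold in both mice. Tables used Python 3.11.15, pandas 2.3.3 and matplotlib 3.10.9. The fit was run on simulated data without tied values and with changes far larger than those of the members. That run does not bear on tied values or on differences of the members' size. The members and gene lists were chosen with earlier results of these data known. Alternatives were another normalization, filter, pseudocount, fold and variance model, tied pairs left out, and each acetate-fed mouse left out.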

Additional observations from a re-analysis of the deposited data

How the results depend on the processing

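No member probe set was 2-fold from the control in both mice under any alternative run. Counts over the whole array moved with the setting: limma's 1400 higher and 1446 lower calls became 0 and 0 after quantile normalization, median centring or in the upper 40% of probe sets (4292, 4959 and 3513 at an unadjusted p under 0.05), 3140 and 3383 with no filter, and 1174 and 890 without tied pairs. The cause of these moves was not tested. The 93 probe sets at least 2-fold higher and 97 lower became 54 higher with a pseudocount of 16, 31 and 49 with one of 64, 450 and 333 at 1.5-fold, and 1884 and 1583 at 1.2-fold, a fold added after the data were seen, at which 2 member probe sets were higher. The 2 member probe sets with the control above both became 4 with no filter and 1 without tied pairs. The 17 pathway genes with the control above both became 22 after quantile normalization and 24 after median centring. The 8 with the control below both became 10 and 8. The share of all genes at those settings was not counted. With 1 acetate-fed mouse left out there is no test. The counts then ran from 149 to 384 for 2-fold higher, 124 to 157 for 2-fold lower, 6 to 8 and 3 to 4 for members with the control below or above, and 10 to 15 and 20 to 25 for pathway genes. The direction turned for Ptges (-0.41 to 0.23 on 1449450_at and -0.12 to 0.39 on 1439747_at) and Hpgd (-0.22 to 0.066 on 1419905_s_at), with mouse 2 the higher for Ptges and mouse 1 for Hpgd. No paired analysis was possible, since 1 control mouse and 2 other, acetate-fed mice form no pairs.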
